A study of Megathyrsus maximus with 33 samples.

Results

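The most stable leaf transcripts of Guinea grass (Panicum maximum) were the 200 transcripts whose levels varied least over 32 field-grown leaf libraries. They were taken from 39208 transcripts of a table of log2 values. In that table a value is the log2 of a transcript's reads, with 0.5 added, for each 1000000 reads of a library size that was scaled by TMM (trimmed mean of M values, which sets library sizes so that most transcripts do not differ between libraries). Transcripts with a mean log2 value of at least 3 and below 9 formed a level band of 10511, with 28528 transcripts below it and 169 above it. The 200 with the smallest standard deviation (SD) over the 32 libraries were kept, which is 1.90% of the band. The log2 values themselves therefore chose these transcripts, and their small SD is a description and not a finding.

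The libraries came from the youngest fully expanded leaves of plants in 16 open-air plots, each sampled at 2 time points. The treatments were elevated [CO2] with elevated temperature (eCeT), elevated temperature (eT), elevated [CO2] (eC) and the ambient control (C). Elevated [CO2] was 600 ppm and was released in the open field, and infrared heaters warmed the canopy by 2 °C. Time point B is labelled as 50 days of treatment and time point A as 30 days, but the calendar dates that the sources give for time point B differ by a month. Each of the 8 groups held 4 plots, and a library pooled 6 leaves of a plot, so 1 library stands for 1 plot. All plots grew the same forage grass in the same field, and the sources used here name no mutant or transgene.

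Transcripts of near-constant level serve as internal references in quantitative PCR, where the level of another transcript is read against them. In plants the usual choices encode proteins that nearly every cell needs, such as actin, tubulin, ubiquitin and translation elongation factors, and their constancy is known to depend on tissue and treatment. The scaling of sequencing libraries rests on a related idea, because it takes the bulk of the transcripts to be unchanged.

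None of the 200 transcripts carries a gene name in the files. The supplementary files of the study give matches or correlations for 165 transcripts, of which 31 lie in the level band and 0 are among the 200. The transcripts are therefore named by their assembly identifiers, which start with the number of a component of the Trinity assembly. Whether the usual reference genes are among them was not tested. Of the 200, 59 belonged to a component with more than 1 transcript (29.5%), against 35.4% of the level band and 44.0% of all transcripts. Only c82471_g3 and c82471_g2 came from the same component, which holds 4 transcripts, so that reads may have been split between near-identical copies there.

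Reads were recovered from the log2 values, since the lowest value of each library is that of 0 reads. Of the values that stand for 1000 reads or fewer (96.2% of them), 100% gave a whole number to within 0.02. The libraries held between 6148492 and 15638550 recovered reads (median 11445789), and the library of eT replicate 3 at time point A was the smallest. TMM made the library sizes 0.614 to 1.42 times the recovered totals. Transcripts matched to photosynthesis genes were present in these leaves. The match to ribulose-phosphate epimerase, an enzyme of the Calvin cycle (c81866_g1), had 2507 to 9520 reads per library, and those to a light-harvesting protein of photosystem I (c82081_g1) and to a subunit of the chloroplast NDH complex (c84013_g1) had 23 to 767 and 26 to 988 reads. The match to plastocyanin (c66714_g1) had 4 to 197 reads, and that to CRR3, another NDH protein (c87432_g1), had 0 to 29. These lists came from the study's own tables on these samples.

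The SD of the 200 stable transcripts lay between 0.0936 and 0.141 log2 units, with a median of 0.129. The rest of the level band had a median of 0.298, and all 39208 transcripts had a median of 0.620. Between the lowest and the highest of the 32 libraries the stable transcripts differed by 1.28- to 1.73-fold (median 1.44-fold), where the rest of the band had a median of 2.37-fold. In 165 of the 200 the highest library was within 1.5-fold of the lowest, against 259 of the 10511 transcripts of the band with the 200 included. All 200 stayed under 2-fold, as did 3255 of the band. On the linear scale their coefficient of variation was 6.37 to 9.88%, with a median of 8.87%.

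**Figure D1:**
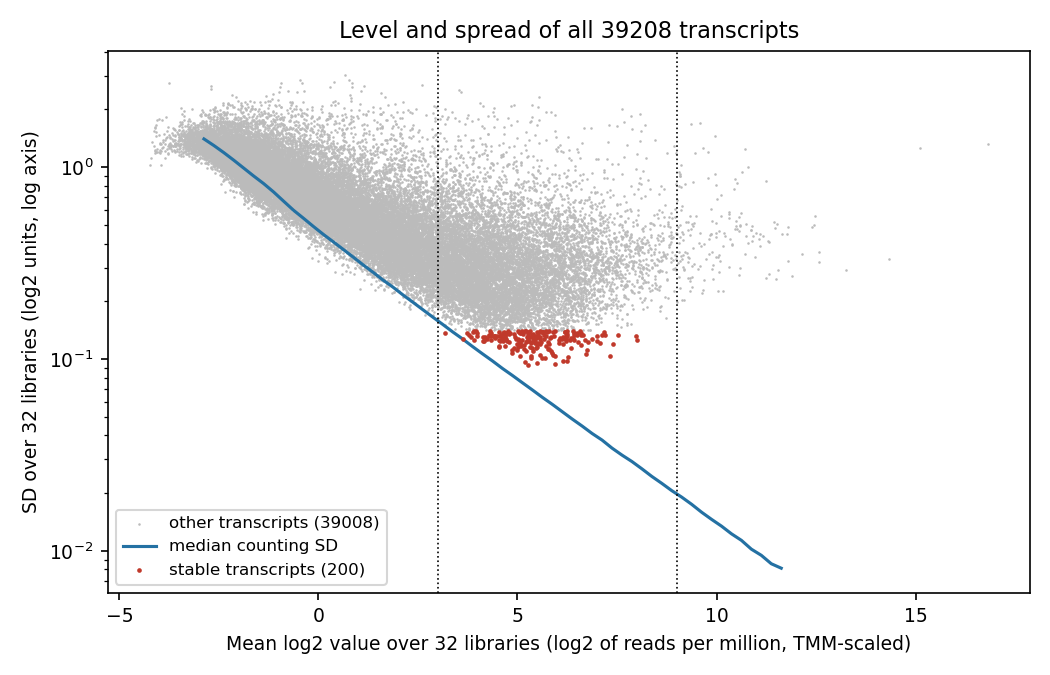
Mean log2 value (horizontal axis) and SD over 32 libraries in log2 units (vertical axis, log scale) of all 39208 transcripts (grey), with the 200 stable transcripts in red, the limits of the level band as dotted lines, and the median SD that read counting alone would give in blue. The red points end at an SD of 0.141, and at the low end of the band they meet the blue line.

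The transcript with the smallest SD, c84972_g1, had a mean log2 value of 5.27 and an SD of 0.0936 over the 32 libraries. At time point A its log2 values were 5.20, 5.35, 5.37 and 5.27 in eCeT, 5.18, 5.32, 5.34 and 5.40 in eT, 5.20, 5.27, 5.14 and 5.13 in eC, and 5.12, 5.25, 5.30 and 5.06 in C. At time point B they were 5.26, 5.36, 5.35 and 5.33 in eCeT, 5.15, 5.37, 5.31 and 5.32 in eT, 5.43, 5.35, 5.20 and 5.36 in eC, and 5.30, 5.32, 5.16 and 5.28 in C. The groups overlapped at both time points, and the lowest library was a C plot of time point A and the highest an eC plot of time point B. The second smallest SD was that of c88305_g1 (0.0943), with a lowest log2 value of 5.76, a median of 5.96 and a highest of 6.14. The third, c95128_g1 (0.0955), had a lowest value of 5.19, a median of 5.49 and a highest of 5.62. For both, the lowest library was one from time point A, of eT replicate 3 in c88305_g1 and of eC replicate 4 in c95128_g1.

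At the limit of the choice, the last transcripts inside were c87020_g1 and c93170_g2, with SDs of 0.14065 and 0.14074. The first outside were c90881_g4 and c87417_g1, with 0.14098 and 0.14105. Inside and outside were thus separated by less than a thousandth of a log2 unit. The widest range over the libraries among the 200 was that of c87171_g1, with a lowest log2 value of 3.46 in C replicate 3 at time point B and a highest of 4.25 in eC replicate 1 at time point A. This was a 1.73-fold difference, between 102 and 214 reads. In log2 value the other 30 libraries lay between these, while reads ran from 69 to 284 over libraries of unlike depth. The transcript still had an SD of 0.139.

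**Figure D2:**
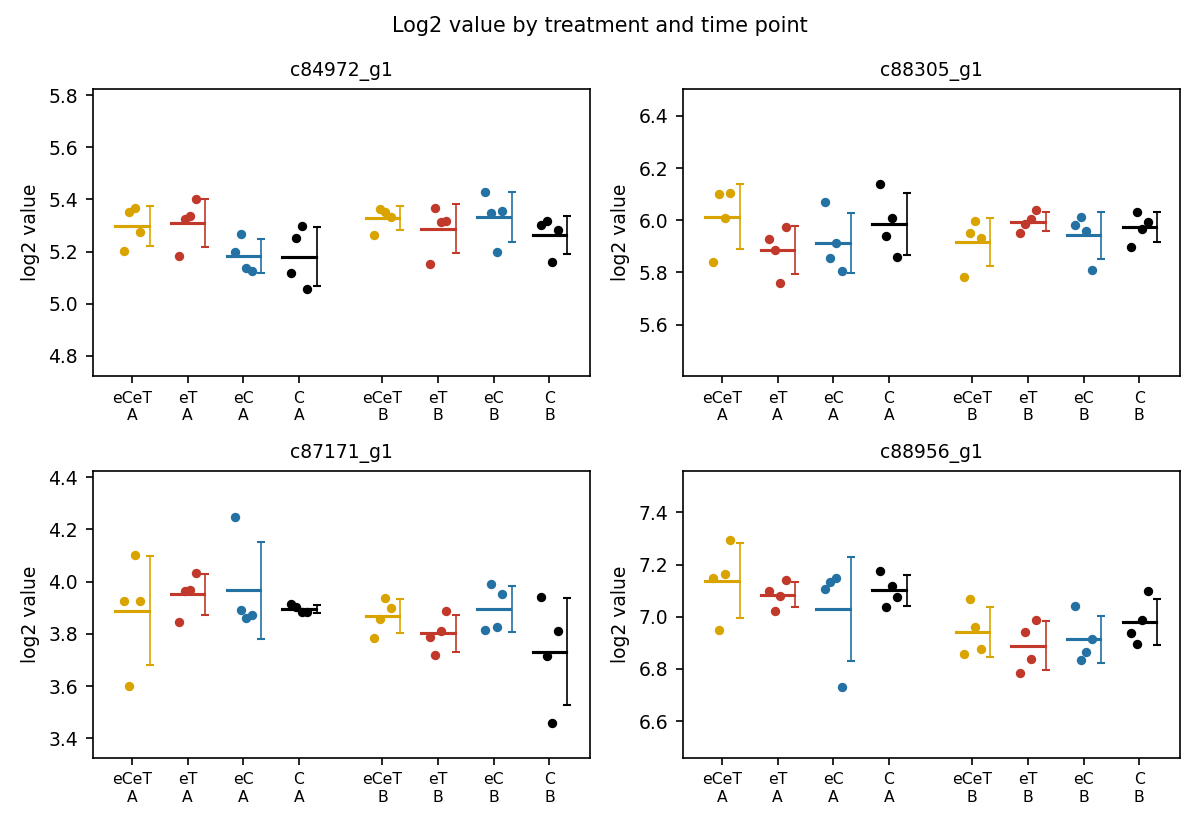
Log2 values of the 2 stable transcripts with the smallest SD (c84972_g1, c88305_g1), of that with the widest range (c87171_g1) and of that with the largest change over time (c88956_g1), by treatment and time point, on axes of equal length. Points are the 4 plots of a group, horizontal lines the means and error bars the SD. The groups of c84972_g1 and c88305_g1 overlap throughout, and single plots of c87171_g1 (4.25 in eC at A) and c88956_g1 (6.73 in eC at A) stand off from their groups.

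The mean log2 value of the 200 lay between 3.18 (c84320_g4) and 8.01 (c86329_g1), with a median of 5.39. Transcript c84320_g4 had a lowest log2 value of 2.87, a median of 3.14 and a highest of 3.44, from 41 to 153 reads per library. Transcript c86329_g1 had a lowest log2 value of 7.74, a median of 8.02 and a highest of 8.22, from 1082 to 4736 reads. The shallowest of these counts, 41 reads, was also the fewest reads that any of the 200 had in any library. Per length, in FPKM (fragments scaled by transcript length and library size), the 200 had mean levels between 6.15 and 143, with a median of 23.3 against 19.3 in the rest of the band.

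The stable transcripts came mostly from the middle of the band. They made up 11 of 3572 transcripts with a mean log2 value from 3 to below 4, 48 of 3013 from 4, 89 of 2045 from 5, 42 of 1177 from 6, 9 of 482 from 7 and 1 of 222 from 8 to below 9. The share was highest from 5 to below 6, at 4.35%. The median SD of all transcripts in these steps was 0.310, 0.279, 0.276, 0.296, 0.320 and 0.359, so the typical spread was also smallest there. The SD that read counting alone gives, taken as Poisson noise, had medians of 0.134 in the lowest step and 0.0244 in the highest.

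Read counting made up a larger share of the variance in the stable transcripts than in the rest of the band. The share is taken of the variance that the rule chose to be small, so the choice itself raises it. It is a description, and nothing is read from the difference. It accounted for a median of 29.4% of their variance over the libraries, against 9.06% in the rest. For 36 of the 200 it was at least 50%. For c84320_g4, the lowest in level, the counting variance came to 113% of the variance seen, so no spread beyond counting could be read from this transcript. For c86329_g1, the highest in level, it was 4.84%. Differences in SD among the members of low level that are smaller than the counting noise were not detectable at this depth.

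The stable transcripts were long for their level band. The ratio of reads to FPKM gives a relative length, which for the 200 had a median 1.37 times that of the band, and 170 of the 200 were above the band's median. Longer transcripts hold more reads at the same FPKM, and the 200 had a median of 488 mean reads per library, against 272 in the rest of the band. The part of read number in the choice was not tested.

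Groups of treated plots were compared with C at each time point by limma over all 39208 transcripts, and transcripts with a Benjamini-Hochberg adjusted p under 0.1 are called. The rule chose the 200 on these same values, so that the counts are given beside the share of all transcripts called and nothing is read from them. For eCeT against C, limma called 0 of the 200 at time point A, beside 1.4% of all transcripts, and 0 at time point B, beside 0.309%. For eT against C it called 0 at time point A, beside 0.0485%, and 0 at time point B, beside 0.0179%. For eC against C it called 0 at both, beside 0% of all transcripts. For all warmed plots (eT and eCeT) against the unwarmed plots (eC and C) it called 0 at time point A, beside 3.77%, and 0 at time point B, beside 0.0459%. At an unadjusted p under 0.05 limma found 6 and 2 of the 200 for eCeT, 1 and 2 for eT, 2 and 2 for eC and 6 and 1 for warming, each at time points A and B. The shares of all transcripts at this unadjusted threshold were 12.5% and 10.3% for eCeT, 10.3% and 7.26% for eT, 7.90% and 6.51% for eC, and 15.6% and 7.46% for warming. The voom form of limma on the recovered reads also called 0 in each of these comparisons. Among all transcripts voom called 1.7% and 0.181% for eCeT, 0% and 0.0051% for eT, 0% at both for eC, and 2.85% and 0.0051% for warming, at time points A and B.

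Across these comparisons the median size of the change, regardless of sign, was 0.043 to 0.071 log2 units among the 200, and 0.107 to 0.182 over the level band. Among the single treatments against C, the 95% interval of a change had a median half-width of 0.23 log2 units with 4 plots a group. The error variance in it was moderated toward a trend over all transcripts, while the 200 were chosen for a small SD. The largest positive change of a stable transcript was that of c94756_g1 in eCeT at time point A, at 0.31 log2 units (standard error 0.105). Its log2 values were 6.21, 6.18, 6.17 and 6.28 in the eCeT plots, against 6.04, 5.76, 5.89 and 5.92 in the C plots. All eCeT plots lay above all C plots. The most negative was that of c89284_g2 in eT at time point B, at -0.28 (standard error 0.0963). Its log2 values were 5.76, 5.56, 5.85 and 5.58 in the eT plots, against 6.01, 6.01, 5.89 and 5.97 in the C plots. Here too the groups did not overlap. Both transcripts were picked for the size of their change, so nothing is read from the lack of overlap. How many of all transcripts show it was not counted. The comparisons at a time point share their C plots. Neither transcript was called over all transcripts, and the first was called when only the level band was fitted, where 4.09% of the band was called.

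The differences between the effects of a treatment at the time points, and the interactions of warming with [CO2], were tested in the same model. limma called 0 of the 200 and 0 of all transcripts in each of these 6 comparisons. At an unadjusted p under 0.05 there were 1 to 5 of the 200 (0.5 to 2.5%), beside 4.60 to 5.95% of all transcripts.

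Averaged over the treatments, limma called 22 of the 200 between time point B and time point A, 13 higher and 9 lower at time point B, which is 11%. Among all transcripts 43.2% were called, 23.3% higher and 19.9% lower, and in the level band 55% were called. Of the 22, the size of the change was 0.110 to 0.158 log2 units, with a median of 0.127, where the called transcripts of the whole table had a median of 0.629. The largest of the 22 corresponds to a 1.12-fold difference. Voom called 25 of the 200, beside 43.7% of all transcripts. With only the level band fitted 37 were called, beside 58.3% of the band, and at an adjusted p under 0.05 there were 8, beside 35.5% of all transcripts. Leaving out single libraries gave 13 to 24 calls, beside 40.3 to 44.3% of all transcripts. The library of the same plot at the other time point was kept each time. There were 13 calls without eCeT replicate 2 of time point B (beside 41.6%). There were 14 without eCeT replicate 1 of time point A (beside 41.9%) and 14 without eT replicate 2 of time point A (beside 41.4%).

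Among those called higher, c84634_g1 had a lowest log2 value of 4.33, a median of 4.51 and a highest of 4.70 at time point B, against 4.19, 4.36 and 4.53 at time point A. The values of the time points overlapped, and 13 of the 16 plots were higher at time point B. For c93160_g2 the lowest, median and highest were 4.86, 5.14 and 5.26 at time point B, against 4.71, 5.01 and 5.14 at time point A, and 12 of the 16 plots were higher at time point B. The changes of these transcripts were both 0.15 log2 units (standard error 0.053).

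Among those called lower, c88956_g1 had a lowest log2 value of 6.79, a median of 6.93 and a highest of 7.10 at time point B, against 6.73, 7.11 and 7.29 at time point A. Only 3 of the 16 plots were higher at time point B. The ranges overlapped, and the lowest value of time point A was that of eC replicate 4. For c94959_g1 the lowest, median and highest were 5.43, 5.68 and 6.05 at time point B, against 5.73, 5.88 and 6.01 at time point A, and 2 of the 16 plots were higher at time point B. The changes were -0.16 and -0.15 log2 units (standard errors 0.054 and 0.053). In bulk leaf tissue fewer cells of a type and less RNA per cell cannot be told apart.

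The direction of the time change over the whole list depended on the scaling of the libraries. As deposited, 98 of the 200 were higher and 102 lower at time point B, with a median change of -0.0017 log2 units, where the level band had a median of -0.088 and all transcripts one of 0.047. With quantile normalization 193 were higher and 7 lower (median 0.12), and with every library centred on its median 29 were higher and 171 lower (median -0.080). Without TMM scaling 124 were higher and 76 lower (median 0.023). On log2(FPKM + 1) there were 10 higher and 190 lower (median -0.13). The calls also depended on it, where the deposited scaling gave 13 higher and 9 lower. Quantile normalization called 98 of the 200, all higher, beside 41.4% of all transcripts. Centring called 41, all lower, beside 43.2%, and FPKM called 28, all lower, beside 26%. Of the 22 transcripts called as deposited, 15 were called with quantile normalization, 9 with centring and 9 with FPKM. Without TMM scaling limma called 0, beside 35.3% of all transcripts, with 0 of the 200 also at an unadjusted p under 0.05, beside 38.6% of all transcripts.

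**Figure D3:**
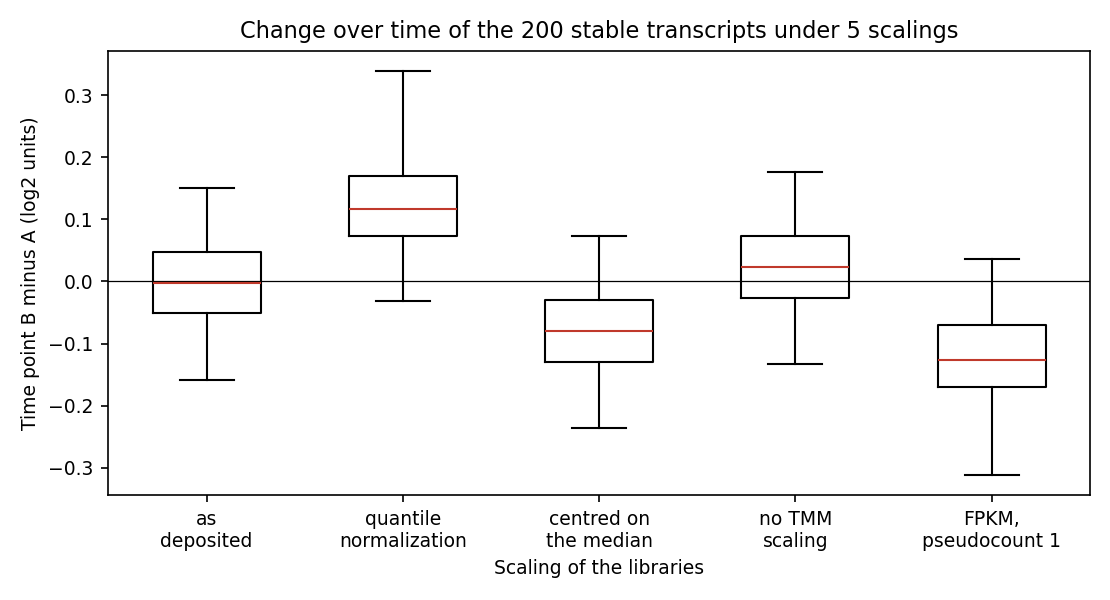
Change from time point A to B (B minus A, log2 units) of the 200 stable transcripts under 5 scalings. Boxes span the quartiles, red lines are medians and whiskers reach the lowest and highest transcript. The median is near 0 as deposited (-0.0017), above it with quantile normalization (0.12) and without TMM scaling (0.023), and below it when libraries are centred on the median (-0.080) or with FPKM (-0.13).

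Within libraries the stable transcripts moved together by small amounts. The median deviation of the 200 from their own means ranged from -0.145 log2 units in eC replicate 4 of time point A to 0.086 in C replicate 1 of time point A, with an SD of 0.0465 over the 32 libraries. The level band ranged from -0.18 in C replicate 3 of time point B to 0.14 in eC replicate 2 of time point A, with an SD of 0.0694. The library of eC replicate 4 of time point A held the lowest value of 43 of the 200, with 166 below their own mean. The median deviation of the level band in this library was -0.049. The next most often lowest library, C replicate 3 of time point B, held the lowest value of 22. These counts were not made for the band, so nothing particular to the 200 is read from them. Without eC replicate 4 of time point A, 179 of the 200 were chosen again, and the median SD of the 200 was 0.125. The smallest library, eT replicate 3 of time point A, had a median deviation of -0.0056, and 188 of the 200 were chosen again without it.

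**Figure D4:**
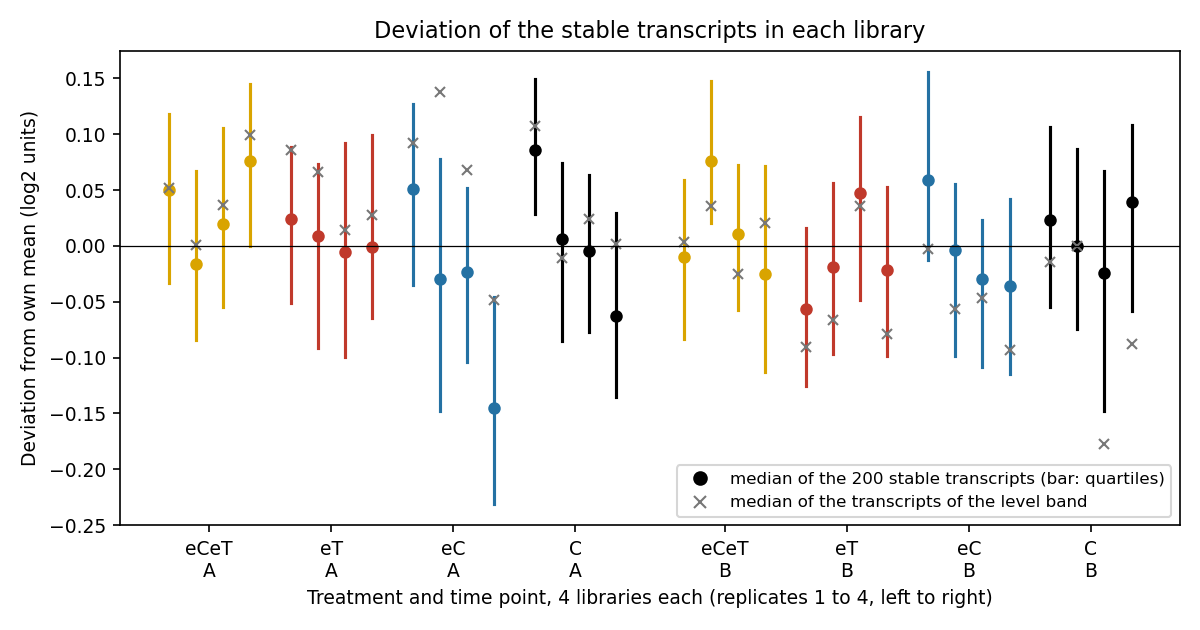
Median deviation of the 200 stable transcripts from their own mean (circles, bars from the lower to the upper quartile, log2 units) in each of the 32 libraries, by treatment and time point, with the median of the level band as crosses. The circles lie between -0.145 (eC replicate 4, time point A) and 0.086 (C replicate 1, time point A), and the crosses between -0.18 and 0.14.

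The reads of the 200 together made up 0.643 to 1.47% of the recovered reads of a library, a coefficient of variation of 18.1%. Relative to the scaled library size they made up 0.959 to 1.12%, a coefficient of variation of 3.22%. The shares differ only in the denominator. Without TMM scaling the median SD of the 200 was 0.302, against 0.400 in the rest of the band.

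The spread was not the same in every group. Within the 4 plots of a group the median SD of the 200 was 0.0945 in eCeT, 0.108 in eT, 0.132 in eC and 0.116 in C at time point A. At time point B it was 0.115 in eCeT, 0.102 in eT, 0.0970 in eC and 0.109 in C. The largest was that of eC at time point A, and the spread of this group without replicate 4 was not computed. In the rest of the band the same medians ran from 0.196 to 0.262, with 0.258 in eC at time point A. The order of the groups was not tested, since the choice used all of them. Differences between the 8 groups held a median of 26.7% of the variance of a stable transcript, against 40.4% in the rest of the band. The time point held 4.18% against 15.8%, the treatments within a time point 19.6% against 18.9%, and the replicate number 10.2% against 9.06%. These shares were not corrected for the number of groups compared, so random differences between plots alone also give a share. That share is larger for the treatments within a time point than for the time point. In 35 of the 200 the time point held more of the variance than the treatments did. The count was not made for the band, and nothing is read from it.

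Pairs of stable transcripts had low correlations over the 32 libraries, which they share along with the library scaling. The same values were not computed for the level band, so nothing particular to the 200 is read from them. The mean Pearson correlation over all pairs was 0.12, and 71.0% of the pairs were positive. With every library centred on the 200 it was 0.040. The first principal component held 16.7% of the variance.

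The SD of the log2 ratio of a transcript to each of the stable transcripts, averaged over them, is a form of the measure used to rank reference genes. A constant factor per library cancels in it, whereas quantile normalization or FPKM with a pseudocount would change it. It was 0.143 to 0.190 for the 200, with a median of 0.167, and had a median of 0.320 in the rest of the band. The smallest value was that of c95128_g1, followed by c88305_g1 (0.144). The smallest value outside the 200 was 0.163, in c90537_g2. The 200 with the smallest ratio measure shared 166 with the list, which was chosen under TMM scaling and had itself supplied the partners of the ratios.

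The stability was also followed in libraries that had no part in the choice. The same rule was applied to 24 libraries with 1 replicate number left out, and the chosen 200 were then measured in the other 8. Their median SD in the libraries not used was 0.123, 0.133, 0.134 and 0.147 for replicates 1, 2, 3 and 4, against 0.260, 0.286, 0.290 and 0.298 in the rest of the band. In the libraries used it was 0.122 to 0.127. Of the 200 chosen, 197, 199, 199 and 198 lay below the band's median SD in the libraries not used, while 26, 46, 33 and 35 were among the 200 smallest there. The libraries left out share their TMM scaling with the others. Each choice had 150 to 154 transcripts in common with the list.

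A choice made on a single time point was followed into the other. The 200 chosen at time point A had a median SD of 0.146 over the 16 libraries of time point B, against 0.259 in the rest of the band, and 0.113 at time point A itself. The 200 chosen at time point B had one of 0.153 at time point A, against 0.266 in the rest, and 0.105 at time point B. Of these, 195 and 193 lay below the band's median where they had not been chosen. The plots are the same at both time points.

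**Figure D5:**
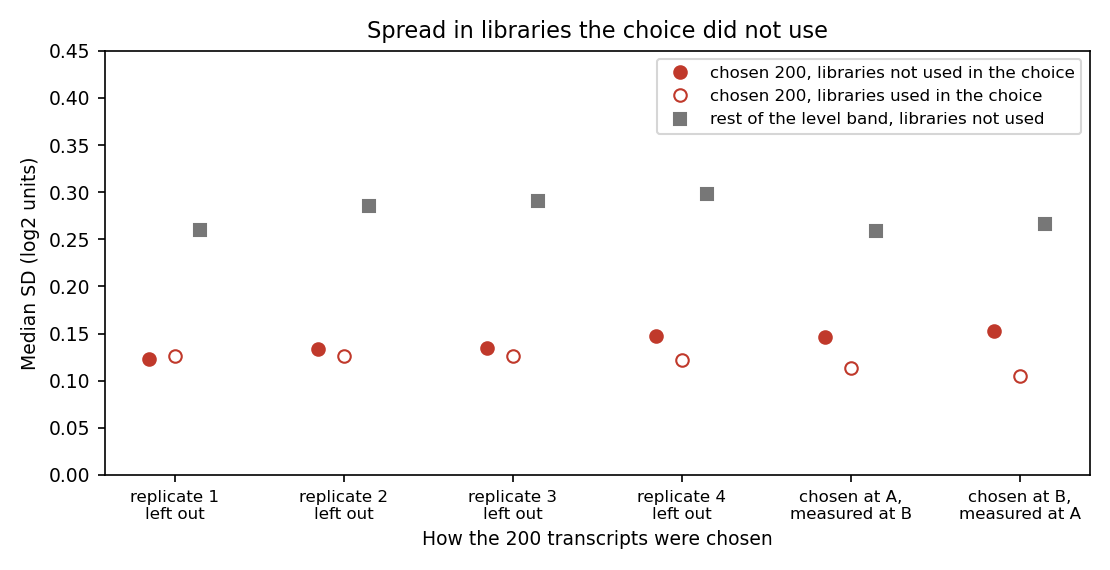
Median SD (log2 units) of 200 transcripts chosen by the same rule on part of the libraries, in libraries not used (filled circles) and used (open circles), with the rest of the level band in the libraries not used (squares). Filled circles lie between 0.123 and 0.153 and squares between 0.259 and 0.298.

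The list itself depended on how spread was measured. Median-of-ratios scaling kept 181 of the 200, the coefficient of variation 188 and 5 added reads 191. Centring each library on its median kept 106, quantile normalization 86 and the absence of TMM scaling 26. With FPKM values, which cover 29 of the 32 libraries, 31 were kept, and the log2 table with those 29 kept 152. The 4 transcripts also chosen under 5 alternative scalings and FPKM with a pseudocount of 1 were c89354_g1, c81392_g1, c95405_g1 and c90801_g2. These scalings were median-of-ratios, 5 added reads, centring, quantile normalization and no TMM scaling. The 4 were singled out after their values were seen. Transcript c89354_g1 had a lowest log2 value of 5.73, a median of 5.93 and a highest of 6.08, from 266 to 1068 reads, a 1.28-fold range and the narrowest of the 200. Transcript c81392_g1 ranged from 4.96 to 5.45 (median 5.22), c95405_g1 from 4.89 to 5.33 (median 5.05) and c90801_g2 from 3.64 to 4.17 (median 3.92). Their SDs were 0.103, 0.110, 0.121 and 0.126 as deposited. Without TMM scaling they were 0.261, 0.270, 0.263 and 0.262.

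For orientation, the SDs of some transcripts with gene matches can be set beside the limit of 0.141 that the choice fixed. The 8 matched to heat shock proteins, chaperones that heat induces, had SDs between 1.16 and 2.37. The 8 matched to pathogenesis-related genes, which belong to plant defence, had SDs between 0.847 and 1.60. Of these lists 4 and 3 transcripts lay in the level band, with SDs of 1.16 to 1.49 and of 0.972 to 1.16. The others lay below it. Both lists were chosen by the study on these samples. The 5 leaf transcripts named above had SDs between 0.435 (c81866_g1) and 1.39 (c87432_g1), and 2 of them lay in the band. Among the 31 annotated transcripts of the level band, c84530_g1, matched to an aldolase-family protein, had the smallest SD, at 0.240. This SD is at percentile 31.3 of the band, and its log2 values ran from 7.10 to 8.10. The largest, 1.49, was that of c76756_g2, matched to a small heat shock protein, with log2 values from 1.63 to 8.03, an 84.8-fold range.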

How the data were processed

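The authors assembled the transcriptome with Trinity and deposited log2 values, computed from TMM-scaled library sizes with 0.5 reads added, and FPKM for 45073 transcripts. The aligner and counting program are not given in the sources used here. The submitters' processing notes name CASAVA and bcl2fastq 1.8.4. Among the deposited FPKM columns, 3 of the control carry conflicting library names and were not used. A pool used for the assembly was not analysed here. Members and lists were chosen with earlier results of these data known.

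All 39208 transcripts were fitted in 1 limma 3.58.1 model of 8 groups (R 4.3.3; eBayes with a trend, Benjamini-Hochberg). The steps of the choice and of the fit were also run on simulated data. The settings and outcome of those runs are not given here. Nothing about the listed transcripts or the calls is therefore read from them. Descriptions were computed with pandas 2.3.3 and numpy 2.4.6 in Python 3.11.15, and drawn with matplotlib 3.10.9. Counting variance was Poisson, and intervals are 95%. Recovered reads were 6148492 to 15638550 per library.

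Named transcripts were the 3 smallest SDs, the lowest and highest level, 2 on each side of the SD limit, the widest range, the 2 largest called time changes in each direction, the largest treatment changes, and the annotated transcripts of smallest and largest SD. The 4 kept under 5 alternative scalings and FPKM, the component pair and the lowest ratio measure outside the list were added after the values were seen.

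Each plot was sampled at both time points, so plots pair the libraries over time. Deviations of the same plot correlated between -0.10 and 0.42. Within a time point, same-numbered libraries correlated between -0.22 and 0.35 at A. At B number 1 gave 0.26 to 0.52 and number 4 gave 0.048 to 0.43, but number 2 gave -0.35 to 0.38 and number 3 gave -0.11 to 0.29. Not every pair passed 0.1, which was required to take the number as a pairing. Alternatives were other scalings, measures of spread, level bands, list sizes, FPKM, voom, blocks, thresholds and omitted libraries.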

Additional observations from a re-analysis of the deposited data

Results flagged for a closer look

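Among 64 groups of 4 plots examined, 4 held a plot far from the others (its gap to the nearest plot took up most of the group's range), where chance gives about 1 in 20, or 3.2. The transcripts examined were named from these same values, some for an extreme such as the widest range. The rate for chance therefore need not hold for them, and nothing is read from the count. In eT at time point A, c95128_g1 had a log2 value of 5.62 in replicate 4, against 5.42, 5.44 and 5.44. In eC at time point A, c87171_g1 had 4.25 in replicate 1, against 3.86, 3.87 and 3.89. In the same group c88956_g1 had 6.73 in replicate 4, against 7.11, 7.13 and 7.15, in the library where 43 of the 200 were lowest. In C at time point B, c84320_g4 had 3.02 in replicate 4, against 3.13, 3.13 and 3.13, with 93 reads.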

How the results depend on the processing

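Of the 200 stable transcripts, other settings chose again 26 (no TMM scaling), 86 (quantile normalization), 106 (centred on the median), 31 and 51 (FPKM, pseudocounts of 1 and 0.1), 88 (median absolute deviation), 117 (counting variance subtracted), 120 (spread within groups), 81 (time point A only) and 101 (time point B only). With libraries left out 150 to 188 were chosen again. The median SD of the 200 was 0.302 without TMM scaling, 0.141 with quantile normalization, 0.162 with centring and 0.227 with FPKM, and 0.123 to 0.130 with libraries left out. In libraries not used in the choice the median of the 4 values was 0.134 as deposited, 0.279 without TMM scaling and 0.169 with centring, both tried after the data were seen. The cause was not tested.

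The 22 calls between the time points became 98 with quantile normalization, 41 with centring, 0 without TMM scaling, 37 with only the level band fitted (fewer transcripts tested, 58.3% of them called) and 8 at an adjusted p under 0.05. Leaving out a single library gave 13 to 24, with 13 without eCeT replicate 2 of time point B and 14 without eCeT replicate 1 or eT replicate 2 of time point A. Voom called 25. With only the level band fitted, limma called 1 of the 200 for eCeT against C at time point A. The other comparisons of treatment and of warming stayed at 0 under the alternatives run. With the replicate number as a block 21 were called between the time points, beside 44.5% of all transcripts, and with the plot as a random effect 26, beside 45.1%. The block changed no count of the other comparisons. Depth limits the SD of the low members, and no gene names or sequences were at hand.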
